A study of Mus musculus with 2 samples.

Results

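Genes for the receptors of glutamate, GABA and glycine were followed across retinal cell classes. They were taken from the feature list by symbol: AMPA (Gria), kainate (Grik), delta (Grid), NMDA (Grin), metabotropic glutamate (Grm and a digit), GABA-A (Gabra, Gabrb, Gabrg, Gabrd), GABA-rho (Gabrr), GABA-B (Gabbr) and glycine receptor (Glra, Glrb) genes. Grm6 was left out and used only to check the bipolar gates. This gave 49 of 32285 features, of which 44 are described. One of them, Grid2ip, shares the letters but encodes a scaffold protein and not a receptor. All of the 44 but Gabra6 had a unique molecular identifier (UMI, a tag counted once per captured transcript) in both libraries.

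Fast glutamate signals in the retina pass through AMPA and kainate channels, and NMDA channels add a slower, voltage-gated current. Photoreceptors and bipolar cells release glutamate; ON bipolar cells read it through a metabotropic receptor that inverts the signal, and OFF bipolar cells through ionotropic channels. Amacrine cells answer with GABA or glycine, acting on chloride channels built from several subunits: GABA-A receptors of alpha, beta and gamma or delta subunits, GABA-rho receptors whose slow currents are typical of bipolar cell terminals, and glycine receptors of alpha subunits with Glrb. GABA-B and most metabotropic glutamate receptors signal through G proteins.

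The cells came from retinas of 14-week-old mice on a B6.Cg background with the allele Gt(ROSA)26Sortm9(CAG-tdTomato)Hze/J, a tdTomato reporter that Cre recombinase switches on. All mice had received an AAV, a viral gene carrier, 8 weeks earlier, and tdTomato-positive cells were sorted and loaded on a droplet 3' RNA-seq system. The library labelled Muller came from a sort with about 4.9% positive cells and the library labelled MullerControl from one with about 10%, taking Muller as the test virus because the other is labelled control. What the viruses carried, their promoters and the number of mice pooled are not given in the sources used here. Each group had 1 library, so no test between groups was possible; every interval is a 95% interval for counting error alone.

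The Muller library held 12316 barcodes and 25622379 UMIs and the MullerControl library 11309 barcodes and 23549118 UMIs, of which 41474 and 18379 fell on the 44 genes. After filtering, 10757 and 9538 cells were kept, with a median of 1502 and 1589 UMIs. The 2 libraries shared 40 barcode sequences, 30 of them kept in both. Cells were gated by the number of distinct marker genes with a UMI, none of them a receptor gene, and 87.6% and 95.2% of kept cells fell in 1 broad gate. A gate is a range of a marker count, not a type, and the minimums were chosen after the marker counts had been seen. In the order Muller, then MullerControl, kept throughout, the gates held 4593 and 6447 rods, 319 and 848 cones, 637 and 187 rod bipolar, 1448 and 449 ON cone bipolar, 137 and 65 OFF cone bipolar, 263 and 17 GABAergic amacrine, 365 and 157 glycinergic amacrine, and 860 and 539 Müller cells, the radial glia of the retina. Only 1 cell per library passed the horizontal cell gate, so horizontal cells are not described.

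The bipolar gates were checked with a gene outside the gating. Grm6, the glutamate receptor of ON bipolar cells, had 557 and 606 CPM (UMIs of the gene scaled to a gate total of 1000000 UMIs) in ON cone bipolar and 437 and 562 CPM in rod bipolar cells, against 23.2 and 13 CPM in OFF cone bipolar cells. Cells near a limit were frequent in some gates: 108 of 137 and 32 of 65 OFF cone bipolar cells had just the minimum of 1 OFF marker, and 141 of 860 and 56 of 539 Müller cells the minimum of 6. At the median cell, rod markers were the main markers of another class in the gates given here. Cones had 1.98% and 1.88% of UMIs on rod markers beside 3.67% and 3.61% on cone markers. OFF cone bipolar cells had 0.493% and 0.381% on rod markers beside 0.576% and 0.571% on bipolar markers. In Müller cells, 2.79% and 3.87% of UMIs were on Müller markers and 0.606% and 0.351% on rod markers. Bipolar markers held 0.0727% and 0.0194% there and amacrine markers 0.0519% and 0.0359%.

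**Figure D1:**
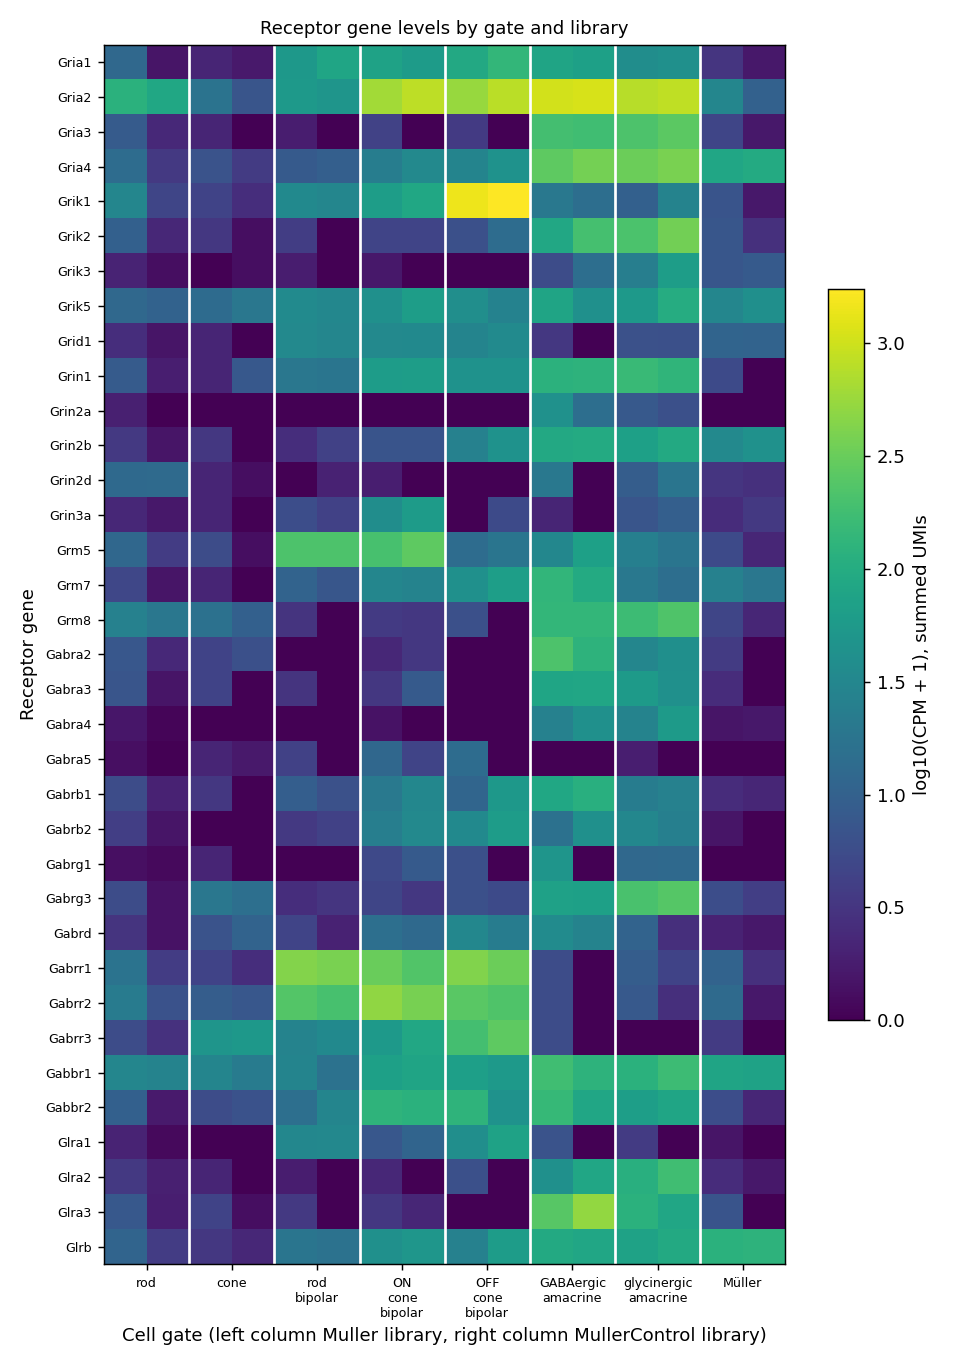
Level of each receptor gene (rows) as log10 of CPM plus 1, by cell gate (columns, Muller library left and MullerControl library right within each gate), for genes with at least 20 UMIs in 1 of the gates shown. Grik1 is brightest in OFF cone bipolar cells (1430 and 1740 CPM), and Gabrr1 and Gabrr2 are bright in the 3 bipolar gates.

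The summed level of the 44 genes separated inner retinal neurons from photoreceptors and glia. It was 2390 and 2570 CPM in ON cone bipolar, 3520 and 4160 CPM in OFF cone bipolar, 3700 and 3960 CPM in GABAergic amacrine and 3010 and 3680 CPM in glycinergic amacrine cells. Rod bipolar cells stood lower, at 1290 and 1200 CPM. Müller cells reached 499 and 445 CPM, cones 208 and 166 CPM, and rods 398 and 186 CPM. Microglia, which lack most of these genes, had 129 and 42.6 CPM. Levels in rods or microglia are set beside results below as a reference for RNA free in the droplets, whose part in those results was not tested unless a value is given. UMIs were counted at the 3' end, so levels were not divided by gene length.

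The first comparison asked how receptor genes differ between rod bipolar cells, which carry rod signals at night, and ON cone bipolar cells of the cone pathway. The AMPA genes Gria2 and Gria4 and the NMDA genes Grin1 and Grin3a were lower in rod bipolar cells, while both classes had high levels of Grm5, Gabrr1 and Gabrr2. A gene counted as different when it differed at least 2-fold in the same direction in both libraries, with at least 20 UMIs over the 2 gates in each. Of 20 receptor genes so measured, 11 were lower and 1 was higher in rod bipolar cells, where 8.19% of all 9580 genes measured were lower and 2.86% higher. The median log2 ratio of the 20 genes was -1.22 and -1.68, beside -0.20 and -0.25 for all genes.

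Gria2, the AMPA subunit that makes the channel nearly impermeable to calcium, stood at 53.6 CPM (44.8 to 63.6) and 47.8 CPM (34.9 to 64.0) in rod bipolar cells. In ON cone bipolar cells it stood at 619 CPM (597 to 642) and 820 CPM (778 to 865). The log2 ratio, rod over ON cone bipolar, was -3.52 (-3.77 to -3.27) and -4.07 (-4.49 to -3.65), the lowest of the 20 genes in each library. The rod bipolar level was below that of rods in the same libraries, 118 and 83.4 CPM, while microglia had 37.5 and 4.87 CPM.

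Gria1, another AMPA subunit, was not lower in the same way. It had 52.0 CPM (43.3 to 61.8) and 78.6 CPM (61.7 to 98.7) in rod bipolar cells against 71.6 CPM (64.1 to 79.6) and 59.4 CPM (48.3 to 72.3) in ON cone bipolar cells, and only 11.4 and 0.528 CPM in rods. Among AMPA UMIs of rod bipolar cells Gria1 therefore made up 45.7% (39.7% to 51.7%) of 278 and 58.3% (49.2% to 67.0%) of 127. In ON cone bipolar cells it made up 9.99% (9% to 11%) of 3385 and 6.51% (5.32% to 7.87%) of 1521. The AMPA make-up thus differed between the 2 classes in both libraries, beyond counting error. Gria4 followed Gria2 in direction, at 7.37 and 8.5 CPM in rod bipolar and 22.4 and 32.4 CPM in ON cone bipolar cells.

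Both NMDA genes measured in this comparison were lower in rod bipolar cells. Grin1, the subunit every NMDA receptor needs, had 18.4 CPM (13.4 to 24.6) and 17.0 CPM (9.72 to 27.6) there and 61.2 CPM (54.3 to 68.7) and 63.6 CPM (52.0 to 76.9) in ON cone bipolar cells. Grin3a, a glycine-binding subunit that dampens NMDA currents, had 4.91 and 3.19 CPM against 38.3 CPM (32.9 to 44.3) and 58.8 CPM (47.7 to 71.6). The delta receptor gene Grid1 was level at 32.3 and 29.7 CPM against 32.6 and 33.6 CPM. Grm7, a presynaptic receptor of low glutamate affinity, had 9.82 and 6.37 CPM against 29.4 and 27.0 CPM. The kainate genes Grik1 and Grik5 did not reach 2-fold in both libraries.

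Grm5, a metabotropic receptor coupled to calcium release, was high in both classes. Rod bipolar cells had 215 CPM (197 to 234) and 216 CPM (187 to 247) and ON cone bipolar cells 200 CPM (187 to 213) and 275 CPM (251 to 302), while rods had 11.2 and 2.75 CPM. The intervals of the 2 classes overlapped in the Muller library, and in MullerControl the rod bipolar interval lay below that of ON cone bipolar cells.

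Some genes for GABA-A subunits separated the classes. Gabrb2, a beta subunit, had 2.46 and 3.19 CPM in rod bipolar and 23.5 and 32.4 CPM in ON cone bipolar cells, and Gabrb1 8.19 and 5.31 CPM against 19.5 and 30.6 CPM. Gabrd, the delta subunit of receptors outside synapses, had 3.68 and 1.06 CPM against 14.4 and 12 CPM.

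GABA-B genes were lower in rod bipolar cells. Gabbr2, the subunit that couples to G proteins, had 14.3 CPM (9.98 to 19.9) and 28.7 CPM (18.9 to 41.7) there against 127 CPM (117 to 138) and 118 CPM (102 to 135). Gabbr1, the ligand-binding subunit, had 28.2 and 15.9 CPM against 68.0 and 76.2 CPM, and the rod bipolar values did not stand above those of rods (29.8 and 27.0 CPM). Glra1 was the only receptor gene called higher in rod bipolar cells. It encodes a glycine receptor alpha subunit, and had 30.3 CPM (23.8 to 38.0) and 31.9 CPM (21.5 to 45.5) against 6.56 CPM (4.46 to 9.32) and 10.2 CPM (5.94 to 16.3) in ON cone bipolar cells. Its log2 ratios, rod over ON cone bipolar, were 2.18 (1.58 to 2.78) in Muller and 1.61 (0.77 to 2.45) in MullerControl. Glrb, its beta partner, went the other way, at 17.2 and 15.9 CPM against 41.5 and 49.8 CPM.

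**Figure D2:**
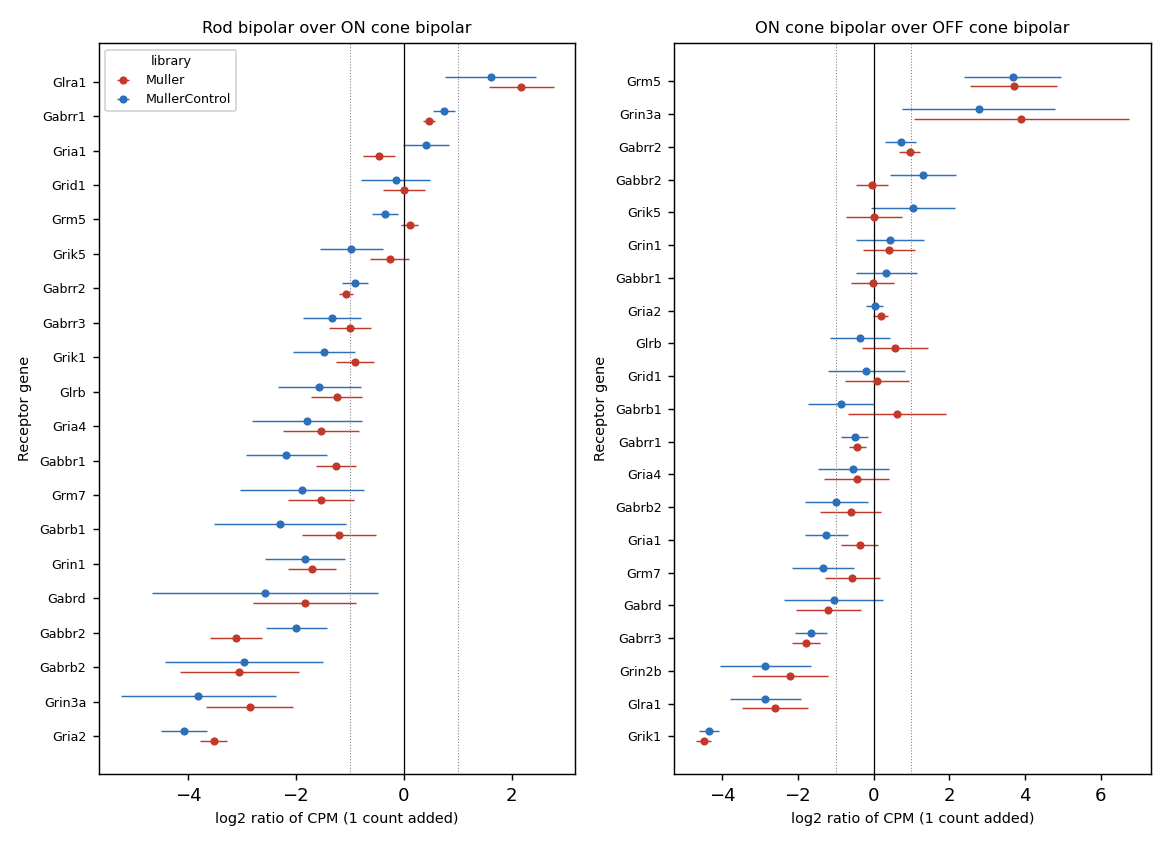
Log2 ratio of CPM with 1 count added (horizontal axis) for each measured receptor gene (vertical axis), rod bipolar over ON cone bipolar (left) and ON cone bipolar over OFF cone bipolar (right), points by library and bars for 95% counting intervals, with dotted lines at 2-fold. On the left Gria2 lies lowest (-3.52 and -4.07) and Glra1 highest; on the right Grik1 lies lowest (-4.49 and -4.35) and Grm5 has 3.69 and 3.67.

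The GABA-rho genes, the channel subunits that define the slow GABA current of bipolar cells, ranked differently by class. Rod bipolar cells had more Gabrr1 than Gabrr2: 435 CPM (409 to 462) and 387 CPM (348 to 429) against 236 CPM (217 to 256) and 198 CPM (170 to 228). ON cone bipolar cells had the reverse order, with Gabrr2 at 497 CPM (477 to 517) and 371 CPM (343 to 402) and Gabrr1 at 316 CPM (300 to 333) and 231 CPM (208 to 255). None of these intervals overlapped between the 2 genes within a library. As a share of GABA-rho UMIs, Gabrr1 was 62.3% (60.0% to 64.6%) and 62.5% (58.5% to 66.5%) in rod bipolar cells, and Gabrr2 was 57.3% (55.7% to 58.8%) and 53.8% (50.9% to 56.7%) in ON cone bipolar cells.

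Gabrr3, the remaining GABA-rho gene, had its own pattern. It was highest in OFF cone bipolar cells, at 185 CPM (145 to 233) and 273 CPM (210 to 350). Next came ON cone bipolar cells, at 54.6 CPM (48.2 to 61.7) and 87.6 CPM (73.9 to 103), and cones, at 48.6 CPM (35.1 to 65.8) and 51.8 CPM (44.0 to 60.5), then rod bipolar cells at 27.0 and 34.0 CPM. Cones and ON cone bipolar cells overlapped in the Muller library. In cones Gabrr3 made up 80.8% (67.5% to 90.4%) of 52 and 86.3% (80.5% to 91.0%) of 183 GABA-rho UMIs, unlike every bipolar gate, where its share was at most 33.5%.

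The 3 GABA-rho genes lie at 2 loci: Gabrr2 (chr4:33062999-33095865) and Gabrr1 (chr4:33132521-33163588) are neighbours on the plus strand, and Gabrr3 stands alone (chr16:59407332-59464504, plus strand; GENCODE M21 on GRCm38). Their upstream sequences are shown because these genes, alike in product, differed in class. The stretches come from RefSeq's 250 bases before the gene start (GRCm38.p6, plus strand) and stop where the GENCODE gene begins: chr4:33132306-33132520 for Gabrr1, chr4:33062862-33062998 for Gabrr2 and chr16:59407132-59407331 for Gabrr3. Capitals mark the letters TAATCC or their reverse complement GGATTA, the core bound by the homeodomain factors CRX and OTX2 of photoreceptors and bipolar cells, searched on both strands.
Gabrr1: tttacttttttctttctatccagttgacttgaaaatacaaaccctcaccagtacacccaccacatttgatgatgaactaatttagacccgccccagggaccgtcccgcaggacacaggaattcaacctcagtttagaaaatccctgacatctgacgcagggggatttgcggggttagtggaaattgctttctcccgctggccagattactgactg
Gabrr2: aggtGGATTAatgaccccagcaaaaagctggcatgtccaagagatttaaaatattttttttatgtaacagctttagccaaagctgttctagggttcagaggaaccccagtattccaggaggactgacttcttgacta
Gabrr3: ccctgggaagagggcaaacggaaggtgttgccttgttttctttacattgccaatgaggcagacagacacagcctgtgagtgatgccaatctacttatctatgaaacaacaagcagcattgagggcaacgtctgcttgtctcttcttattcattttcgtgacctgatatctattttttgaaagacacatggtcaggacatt
Gabrr2 held 1 match and Gabrr1 and Gabrr3 none. Over all RefSeq promoters of 250 bases, 2054 of 32851 (6.25%) held the letters. Promoters were found for 33 of the 44 receptor genes, and 2 of their 41 distinct promoters (4.88%) held them, those of Gabrr2 and Gabra2.

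ON cone bipolar cells, which report light, were then compared with OFF cone bipolar cells, which report dark. Of 21 receptor genes measured, 2 were higher in ON cells (Grm5 and Grin3a) and 5 were higher in OFF cells (Grik1, Glra1, Grin2b, Gabrr3 and Gabrd), where 2.81% of 9073 genes were higher and 2.99% lower in ON cells. Grik1, the kainate receptor subunit of OFF bipolar dendrites, was the largest difference. It stood at 1430 CPM (1310 to 1550) and 1740 CPM (1570 to 1920) in OFF cells and at 63.5 CPM (56.5 to 71.1) and 85.2 CPM (71.7 to 100) in ON cells, 22.4-fold and 20.3-fold higher in OFF cells. A Grik1 UMI was seen in 88.3% and 86.2% of OFF cells (median depth 2955 and 3665 UMIs), beside 2.07% and 0.419% of rods (median depth 955 and 1353 UMIs), and Grik1 made up 97.0% (95.3% to 98.3%) and 97.8% (95.9% to 99.0%) of kainate UMIs there. The level in rods was 29.4 and 3.70 CPM.

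No AMPA gene differed 2-fold in the same direction in both libraries between ON and OFF cells, and Gria3 was not measured. Gria2 had 543 CPM (472 to 621) and 798 CPM (687 to 922) in OFF cells, and its log2 ratio, ON over OFF, was 0.18 (-0.02 to 0.38) and 0.03 (-0.19 to 0.25). Gria1 had 90.0 and 139 CPM in OFF cells and 71.6 and 59.4 CPM in ON cells. Its log2 ratio, ON over OFF, was -0.37 (-0.86 to 0.13) and -1.25 (-1.82 to -0.69). Gria4 had 28.3 and 43.4 CPM in OFF cells. The other kainate gene, Grik5, which forms channels only with partners such as Grik1, had 38.6 and 26.0 CPM in OFF and 41.5 and 61.8 CPM in ON cells.

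Grm5 was low in OFF cells, with 12.9 CPM (4.18 to 30.0) and 17.3 CPM (4.73 to 44.4) in OFF cells, from 5 and 4 UMIs, and the ON level was 12.9-fold and 12.7-fold higher. Grin3a had 0 UMIs and 1 UMI in OFF cells, where a count of 0 allows up to 7.72 CPM (3 counts). Grin2b, an NMDA subunit with slow kinetics, was higher in OFF cells at 25.7 and 43.4 CPM against 5.93 and 6 CPM, although 10 UMIs per OFF gate leave wide intervals (12.3 to 47.3 and 20.8 to 79.8 CPM).

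Among inhibitory receptors, OFF cells had more Glra1, at 38.6 CPM (21.6 to 63.6) and 73.7 CPM (43.0 to 118), and more Gabrr3, with a log2 ratio, ON over OFF, of -1.78 (-2.15 to -1.40) and -1.65 (-2.08 to -1.23). Gabrd had 30.9 and 21.7 CPM from 12 and 5 UMIs. Its log2 ratio, ON over OFF, was -1.19 (-2.05 to -0.34) and -1.05 (-2.36 to 0.26), so the MullerControl interval included 0. Gabbr2 had 129 and 43.4 CPM in OFF cells, with opposite directions of the ON over OFF ratio in the 2 libraries (-0.04 and 1.31).

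Within ON cone bipolar cells, gates for named types showed differences that the pooled class hides. Type 5 gates held 366 and 116 cells, type 6 gates 198 and 54, type 7 gates 46 and 17, and the joint gate of types 8 and 9 16 and 44. Most cells sat at the minimum of 2 markers (267 of 366 and 88 of 116 in type 5, 180 of 198 and 48 of 54 in type 6), so these values are given without a call.

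Grin3a separated type 6 from type 5, at 116 CPM (92.6 to 143) and 128 CPM (86.6 to 183), against 2.83 CPM (0.772 to 7.25) and 7.95 CPM (2.16 to 20.3) in type 5. Types 8 and 9 had 33.5 and 90.1 CPM from 2 and 16 UMIs, and type 7 had 0 UMIs in both libraries. All 86 and 30 UMIs of NMDA subunits other than Grin1 in type 6 cells were Grin3a. Grm7 had 60.6 and 72.7 CPM against 7.79 and 3.97 CPM, and Gabrr3 113 CPM (90.2 to 140) and 167 CPM (119 to 228) against 9.20 and 17.9 CPM. The opposite held for Gabbr2, with 174 CPM (153 to 197) and 211 CPM (172 to 255) in type 5 and 16.2 and 4.28 CPM in type 6, and for Gria1, with 96.3 and 67.5 CPM against 14.8 and 4.28 CPM. Gabra5 was seen mainly in type 5 cells of the Muller library, at 24.1 CPM (16.7 to 33.6), against 5.96 CPM (1.23 to 17.4) in those of MullerControl.

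Type 7 cells had the highest Gria2 of the ON types, at 946 CPM (811 to 1100) and 1180 CPM (938 to 1460), and Gabrr2 at 674 and 489 CPM. In types 8 and 9 Gria2 had 704 and 800 CPM, from 42 and 142 UMIs, and Gabrr2 335 and 270 CPM. The Gria2 counting intervals of types 8 and 9 overlapped those of type 7, so the order of these types is not settled. Grik1 in type 5 and type 6 cells rested on few cells: 9 of its 42 UMIs in type 5 and 10 of its 33 in type 6 were from a single cell of the Muller library.

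Amacrine cells, the inhibitory interneurons, differed from bipolar cells in most receptor families. Of 32 receptor genes measured, 16 were higher and 8 lower in amacrine cells, against 11.7% higher and 6.77% lower among 11079 genes. Higher were Gria3, Gria4, Grik2, Grik3, Grin1, Grin2b, Grm8, Gabra2, Gabra3, Gabra4, Gabrg1, Gabrg3, Gabbr1, Glra2, Glra3 and Glrb. Lower were Gabrr1, Gabrr2, Gabrr3, Grik1, Grid1, Grin3a, Grm5 and Glra1. The amacrine gate held 793 and 202 cells and the bipolar gate 2753 and 876.

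All 4 AMPA genes were present in amacrine cells. Gria2 was the most abundant, at 879 CPM (842 to 916) and 914 CPM (848 to 983). Gria4, with fast kinetics, had 301 CPM (280 to 323) and 361 CPM (320 to 406), against 21.3 and 26.6 CPM in bipolar cells, and Gria3 202 CPM (185 to 220) and 225 CPM (193 to 261), against 2.37 CPM and 0 UMIs (up to 0.878 CPM). Gria1 did not reach 2-fold, at 71.9 and 113 CPM against 68.6 and 77.0 CPM. Of kainate genes, Grik2 had 163 CPM (148 to 180) and 317 CPM (279 to 360) against 3.95 and 3.22 CPM, and Grik3 14.9 and 48.8 CPM against 0.791 CPM and 0 UMIs, whereas Grik1 had 14.9 and 21.8 CPM. Over the pooled gates, the main kainate gene was thus Grik1 in bipolar cells (80.7% and 84.4% of kainate UMIs) and Grik2 in amacrine cells (61.9% and 64.2%). In rod bipolar cells Grik1 did not lead, at 46.9% and 49.1% beside 48.0% and 50.9% for Grik5. Grik1 made up 57.9% and 56.3% in ON cone bipolar cells and 97.0% and 97.8% in OFF cone bipolar cells.

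Of the NMDA genes, Grin1 and Grin2b were higher in amacrine cells and Grin3a was lower. Grin1 had 141 CPM (126 to 156) and 134 CPM (109 to 162), and Grin2b, the main partner, 73.1 CPM (62.9 to 84.5) and 84.8 CPM (65.6 to 108), against 7.45 and 11.7 CPM in bipolar cells. Grin2a, a partner with fast kinetics, had 24.5 CPM (18.7 to 31.5) and 5.14 CPM (1.40 to 13.2), and Grin2d 14.1 and 15.4 CPM. Among metabotropic genes, Grm8, a presynaptic receptor, had 143 CPM (128 to 158) and 194 CPM (164 to 228). Grm4 (24 and 8 UMIs) and Grm2 (21 and 2 UMIs) reached 20 UMIs in no narrower gate.

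**Figure D3:**
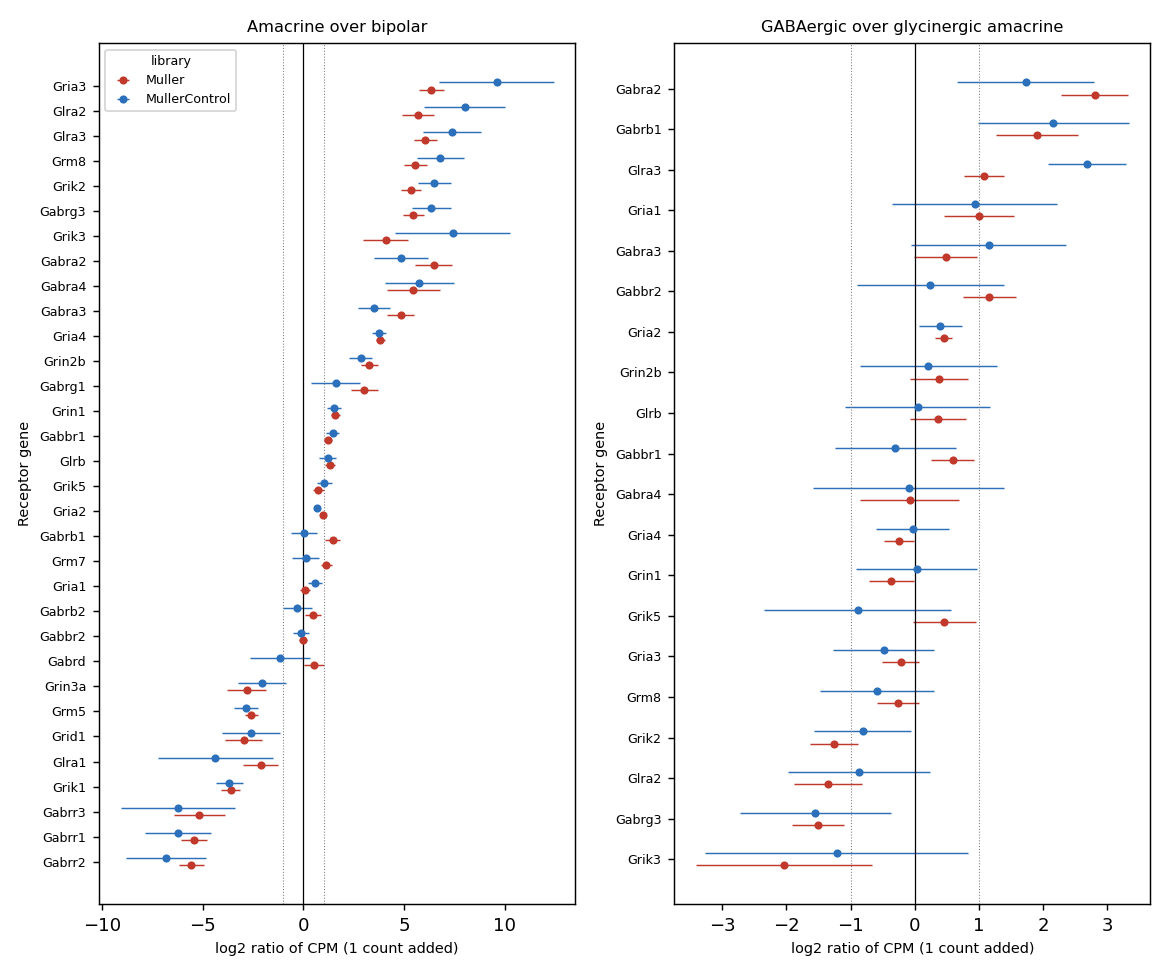
Log2 ratio of CPM with 1 count added (horizontal axis) for each measured receptor gene (vertical axis), amacrine over bipolar (left) and GABAergic over glycinergic amacrine (right), points by library and bars for 95% counting intervals, with dotted lines at 2-fold. On the left Glra3 has 6.06 and 7.38 and Gabrr2 -5.56 and -6.83; on the right Gabra2 has 2.81 and 1.73 (points where a gate had 0 UMIs, such as Gria3 in MullerControl bipolar cells, depend on the added count).

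Several alpha subunits of GABA-A receptors were higher in amacrine cells. Gabra2 had 99.6 CPM (87.6 to 113) and 41.1 CPM (28.1 to 58.0), Gabra3 63.9 and 55.3 CPM and Gabra4 24.5 and 46.3 CPM. In bipolar cells Gabra2 and Gabra4 lay near 1 CPM or lower and Gabra3 had 2.15 and 4.68 CPM. Gabrg3 had 154 CPM (139 to 170) and 212 CPM (181 to 247) against 3.39 and 2.34 CPM in bipolar cells, and Gabrg1 22.5 and 10.3 CPM. All 3 GABA-rho genes were lower, and Gabrr2 had 7.63 and 1.28 CPM, below rods of the same libraries at 21.6 and 5.49 CPM.

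Glra2 and Glra3 were the glycine alpha genes of amacrine cells. Glra3 had 196 CPM (179 to 214) and 194 CPM (164 to 228) in amacrine cells against 2.82 and 0.878 CPM in bipolar cells, and Glra2 75.9 CPM (65.5 to 87.5) and 150 CPM (124 to 180) against 1.36 and 0.293 CPM. Glra1 had 10 and 0 UMIs in amacrine cells. Glrb had 81.1 and 84.8 CPM against 32.5 and 37.2 CPM, and Gabbr1 134 and 161 CPM against 56.6 and 58.2 CPM.

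Between GABAergic and glycinergic amacrine cells, 20 of the 44 genes were measured, and 5 of the 20 were called in both libraries. Higher in GABAergic cells were 3 (Gabra2, Gabrb1 and Glra3), against 1.87% of 6467 genes, and lower were 2 (Gabrg3 and Grik3), against 3.36%. Genes under the minimum of 20 UMIs in a library were not called either way. Grm7 was among those, with log2 ratios, GABAergic over glycinergic, of 2.78 (2.12 to 3.44) and 2.82 (1.45 to 4.20). The GABAergic gate of MullerControl had only 17 cells and 73050 UMIs, so its intervals are wide and a single cell could hold a large part of a gene's UMIs. Gabra2 had 215 CPM (186 to 249) and 123 CPM (56.3 to 234) against 30.1 CPM (20.8 to 42.0) and 39.6 CPM (25.1 to 59.4).

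Glra3 had 246 CPM (214 to 281) and 520 CPM (368 to 714) in GABAergic cells and 116 CPM (96.9 to 138) and 80.9 CPM (59.4 to 108) in glycinergic cells. It made up 83.7% (78.6% to 88.1%) and 86.4% (72.6% to 94.8%) of glycine alpha UMIs in the former and 49.2% (43.1% to 55.4%) and 30.3% (23.2% to 38.2%) in the latter, the rest being mostly Glra2. Gabrb1 had 85.0 and 110 CPM against 22.1 and 25.8 CPM. Gabrg3 had 202 CPM (176 to 230) and 239 CPM (201 to 282) in glycinergic cells against 69.9 and 68.4 CPM in GABAergic cells. Grik3 had 23.0 and 61.9 CPM in glycinergic cells and rested on 4 and 1 UMIs in GABAergic cells.

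Cones and rods were compared in the same way. Of 16 measured genes 2 were higher in cones than in rods (Gabrr3 and Gabrg3) and 2 lower (Gria2 and Grin2d), against 7.86% and 4.86% of 10442 genes. Gabrg3 had 18.5 and 14.4 CPM against 4.65 and 0.422 CPM. Grik5 had 12.7 and 18.0 CPM in cones. Grin1 in cones had 1 and 21 UMIs, Gabbr2 4 and 17 UMIs and Gabrd 5 and 30 UMIs.

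Rods had Gria2 at 118 CPM (109 to 127) and 83.4 CPM (77.7 to 89.4), above the 16.2 and 6.23 CPM of cones and the 37.5 and 4.87 CPM of microglia. Gria2 made up 78.7% and 95.1% of their AMPA UMIs. Grin2d, an NMDA subunit of low magnesium block, had 11.7 CPM (9.01 to 15) and 12.2 CPM (10.1 to 14.7) in rods. Grm8 had 25.9 CPM (21.7 to 30.5) and 18.0 CPM (15.4 to 20.9), and Gabbr1 29.8 and 27.0 CPM, the latter alike in cones (29 and 21 CPM) and microglia (32.1 and 30.4 CPM). These 4 rod genes and Grik5 were the ones that stood within 1.5-fold in the 2 libraries.

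Most receptor genes measured were lower in Müller cells than in neurons. Of 33 measured, 3 were higher (Glrb, Grin2b and Grik3) and 24 lower than in all gated neurons together, against 17.0% and 15.9% of genes. Because 4593 of 8458 and 6447 of 8373 of those neurons were rods, the neuron level of inner retinal genes moves with the share of rods, and levels are given beside the folds. Glrb had 116 CPM (101 to 132) and 123 CPM (107 to 142), while none of the 4 glycine alpha genes exceeded rods of the same library: Glra3 had 11 and 0 UMIs, Glra2 3 and 1, Glra1 1 and 0, and Glra4 0 and 0.

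Gria4 was the AMPA gene of Müller cells, at 82.5 CPM (70.0 to 96.6) and 95.9 CPM (81.4 to 112), or 69.7% (63.2% to 75.7%) and 90.2% (84.8% to 94.2%) of AMPA UMIs. This make-up differed from every neuronal gate, where Gria2 or Gria1 led. Gabbr1 had 78.2 CPM (66.1 to 92.0) and 72.7 CPM (60.2 to 86.9), while its partner Gabbr2 was called lower than in neurons. Grin2b had 32.1 CPM (24.5 to 41.4) and 42.1 CPM (32.8 to 53.3), yet Grin1, which NMDA channels require, had only 8 and 0 UMIs (4.29 CPM and up to 1.83 CPM). Grik5 had 30.0 and 39.7 CPM, Grm7 25.7 and 18.3 CPM, Grid1 10.2 and 9.77 CPM and Grik3 6.43 and 7.33 CPM. In the Muller library the Grin1 level was below that of rods, 7.63 CPM. In MullerControl the limit of 1.83 CPM lay above the rod level of 0.845 CPM. Each of the other levels given here was higher than in rods of the same library. Each was also higher than in microglia of the same library, except Grik3 in Muller. There microglia had 0 UMIs of Grik3, which allows up to 8.04 CPM.

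**Figure D4:**
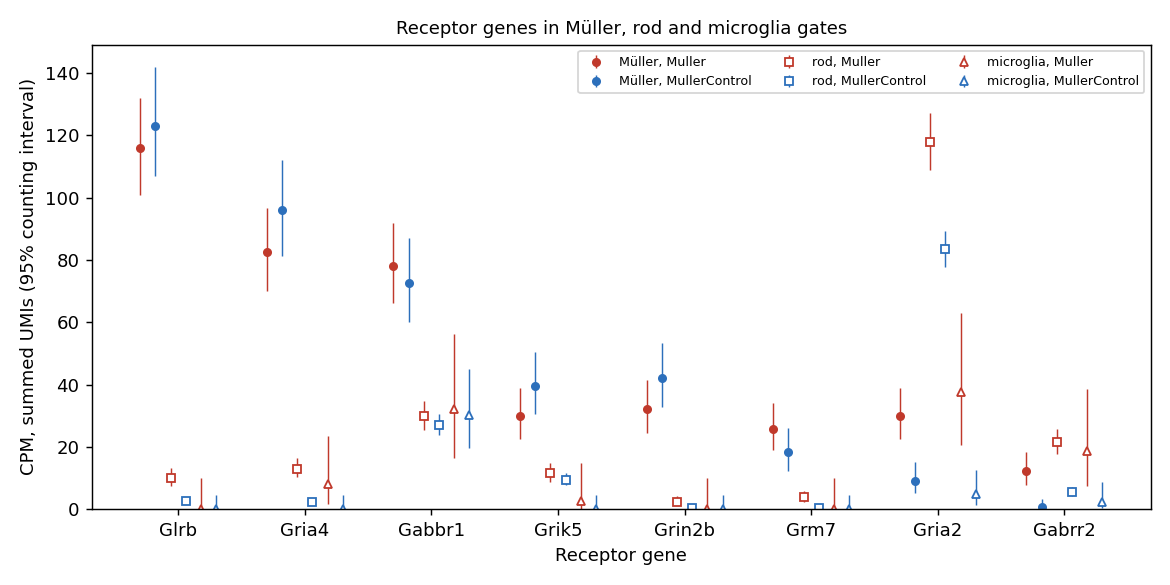
CPM with 95% counting intervals (vertical axis) of 8 receptor genes (horizontal axis) in Müller, rod and microglia gates of each library. Glrb, Gria4 and Gabbr1 stand at like levels in Müller cells of both libraries (Glrb 116 and 123 CPM), while Gria2 and Gabrr2 are higher in Müller cells of the Muller library and no higher there than in its rods.

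The libraries were then compared within each gate, calling a gene at a ratio of at least 1.5-fold with 20 UMIs over both. Rod bipolar cells had 1 higher and 2 lower in Muller of 17 (background 5.88% and 7.68%), ON cone bipolar cells 1 higher and 6 lower of 26 (4.3% and 11.1%) and OFF cone bipolar cells 1 higher and 7 lower of 16 (9.89% and 12.3%). With 1 more marker asked of OFF cone bipolar cells, 6 genes were measured and 1 of them was past the limit, and Grm7, Gria4 and Gabrb2 changed sign. Grm5 in rod bipolar cells had a log2 ratio, Muller over MullerControl, of -0.01 (-0.24 to 0.22). Gria2 in ON cone bipolar cells was lower in Muller by less than the limit, at -0.41 (-0.50 to -0.31), and Gabrr2 was higher at 0.42 (0.29 to 0.55).

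Beyond the limit in ON cone bipolar cells were Gabra5 (1.45, 0.31 to 2.58) on the higher side and Gabrr3 (-0.69, -0.98 to -0.39), Grin3a (-0.62, -0.98 to -0.27), Gabrb1 (-0.66, -1.15 to -0.17), Gabra3 (-1.62, -2.75 to -0.49), Gabrg1 and Glra1 on the lower side. The intervals of Gabrg1 and Glra1 included 0. In the type gates Gabrr3 had -0.58 (-1.12 to -0.04) in type 6, and types made up different shares of the class, with types 8 and 9 at 16 of 1448 and 44 of 449 cells; the part of that mix in these ratios was not tested. In rod bipolar cells Gria1 was lower (-0.61, -1.02 to -0.19) and so was Gabbr2 (-1.01, -1.73 to -0.30), and the interval of the 1 higher gene, Gabbr1, included 0 (0.75, -0.03 to 1.54). In OFF cells Gabbr2 was higher (1.46, 0.52 to 2.40) and Glrb lower (-1.20, -2.32 to -0.08), and the intervals of the 6 other genes called lower included 0.

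In glycinergic amacrine cells no gene was higher and 6 were lower in Muller of 25 (7.45% and 13.4%). These were Grik2 (-0.78, -1.05 to -0.51), Glra2 (-0.68, -1.06 to -0.30), Grik5 (-0.84, -1.35 to -0.33), Grik3 (-1.41, -2.13 to -0.70), Gabra4 (-1.05, -1.74 to -0.35) and Grik1 (-1.59, -2.68 to -0.49). Thus 4 of the 6 were kainate genes, Grik1, Grik2, Grik3 and Grik5. Just the minimum of 2 glycinergic markers was seen in 132 of 365 cells of Muller and 17 of 157 of MullerControl. With 1 more marker asked of glycinergic cells, 2 genes were higher and 5 lower of 23. In GABAergic amacrine cells 4 were higher and 5 lower of 24 (13.1% and 31%), with 17 cells behind the MullerControl values. Of those 9, the intervals of Glra3 (-1.11, -1.60 to -0.62), Grik2 (-1.23, -2.03 to -0.43) and Grm5 (-1.38, -2.66 to -0.11) excluded 0.

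In rods 20 of 25 genes were higher in Muller and none lower, against 16.2% and 2.14% of all genes. Among them were Gria1 (61 and 5 UMIs), Gabbr2 (48 and 7 UMIs) and Grik1 (158 and 35 UMIs), genes of inner retinal neurons. Markers of those neurons moved with them in rods: 11 of 13 bipolar markers and 13 of 13 amacrine markers were higher in Muller and none lower, with list sums of 1430 and 516 CPM and of 389 and 43.2 CPM, and no marker at 0. In microglia the bipolar list summed to 281 and 70.6 CPM and the amacrine list to 93.8 and 19.5 CPM. The part of free RNA from inner retinal cells in the rod ratios was not tested.

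In Müller cells 3 of 11 genes were higher in Muller and none lower (6.38% and 6.33%): Gria2 (1.64, 0.84 to 2.44), Gabrr2 (3.40, 1.32 to 5.48) and Gabrr1 (2.06, 0.50 to 3.62). All of them were lower in these Müller cells than in rods of the same library, as for Gria2 with 30 against 118 CPM. Bipolar markers in the Müller gate again moved alike, with 11 of 12 measured higher in Muller and sums of 744 and 328 CPM. The part of free RNA in these 3 ratios was not tested. The genes that stood above rods in Müller cells differed by less than 1.5-fold, among them Glrb with -0.09 (-0.37 to 0.18), Gria4 with -0.22 (-0.54 to 0.10) and Gabbr1 with 0.10 (-0.24 to 0.45). In cones 2 of 10 genes were higher and 1 lower (6.87% and 8.13%), the higher ones Gria2 (1.41, 0.44 to 2.37) and Grm8 and the lower one Grin1, which had 1 UMI in Muller. The intervals of Grm8 and Grin1 included 0. In the cone gate 8 of 11 measured bipolar markers (886 and 603 CPM in sum) and 3 of 4 measured amacrine markers (183 and 29.5 CPM) were higher in Muller as well and 1 bipolar marker was lower, with Vsx1, Tfap2a and Gad1 at 0 in MullerControl. Gria2 stood at 16.2 and 6.23 CPM in cones against 118 and 83.4 CPM in rods. The part of these markers' RNA in the cone ratios was not tested.

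**Figure D5:**
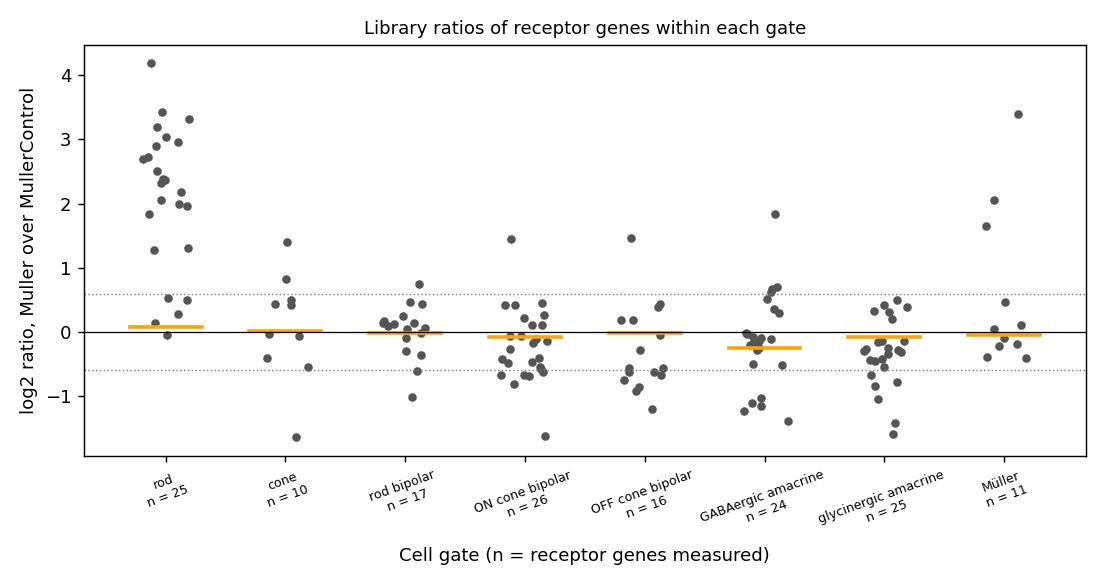
Log2 ratio of CPM, Muller over MullerControl (vertical axis), for each measured receptor gene (points) by cell gate (horizontal axis, n is the number of genes), with an orange bar at the median over all measured genes and dotted lines at 1.5-fold. Rod points lie almost all above the line (20 of 25), and in Müller cells 3 of 11 lie above it and the rest within 1.5-fold.

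Partner proteins of these receptors, were taken as a list of 44 genes. Between amacrine and bipolar cells 18 of 38 measured were higher and 1 lower in amacrine cells, where 11.7% and 6.77% of all genes were. Among AMPA receptor partners, Cacng4, an auxiliary subunit, had 164 and 287 CPM in GABAergic amacrine and 207 and 199 CPM in Müller cells, and Shisa9 172 and 232 CPM in Müller cells. Shisa8 had 196 and 110 CPM in GABAergic amacrine cells and 90.0 and 60.7 CPM in OFF cone bipolar cells. Of the kainate receptor partners, Neto1 had 18.0 and 47.7 CPM in OFF cone bipolar cells, and Neto2 97.3 and 170 CPM in glycinergic amacrine cells.

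Among excitatory scaffolds, Dlg2 had 591 and 497 CPM in rod bipolar cells and 469 and 507 CPM in GABAergic amacrine cells. Dlgap1 had 520 and 342 CPM in GABAergic amacrine cells, against 4.91 and 2.12 CPM in rod bipolar cells. Rod bipolar cells had 10 of 29 measured partner genes lower than ON cone bipolar cells and none higher (8.19% and 2.86% of all genes), with Dlgap1, Homer1 and Shank2 among the lower. Of the scaffolds and carriers of inhibitory receptors, Gabarapl2 had 496 and 490 CPM and Gabarap 241 and 239 CPM in rod bipolar cells. Both were high in other classes too. Gabarapl2 had 364 and 343 CPM in rods and 488 and 394 CPM in ON cone bipolar cells, and Gabarap 209 and 258 CPM in Müller cells. Of the GABA-B partners, Kctd16 had 111 and 104 CPM and Kctd12 97.8 and 73.7 CPM in OFF cone bipolar cells. Kctd8 had 107 and 151 CPM in GABAergic and 142 and 80.9 CPM in glycinergic amacrine cells. Between ON and OFF cone bipolar cells 2 of 30 partner genes were higher in ON cells and 6 lower (2.81% and 2.99% of all genes), Kctd12 and Kctd16 among the latter. Between GABAergic and glycinergic amacrine cells 4 of 31 were higher and 1 lower (1.87% and 3.36% of all genes). Between cones and rods 3 of 25 were higher and none lower (7.86% and 4.86%). Between Müller cells and neurons 8 of 42 were higher and 16 lower (17.0% and 15.9%), the higher share being near that of all genes.

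Several GABA-A genes sit in clusters. On chromosome 7, Gabrg3 (chr7:56716465-57387188) was higher in amacrine cells, and Gabra5 (chr7:57407672-57510059) was at 7.68 and 2.34 CPM in bipolar cells. On chromosome 5, Gabrg1 (chr5:70751047-70842617), Gabra2 (chr5:70957597-71095849), Gabra4 (chr5:71569749-71658308) and Gabrb1 (chr5:71658113-72149037) were all found in amacrine cells. Bipolar cells also had Gabrb1, at 16.8 and 31.3 CPM, and Gabrg1 at 2.71 and 3.51 CPM. Gabra4 and Gabrb1 overlap on opposite strands only where both genes start, away from the 3' ends at which UMIs were counted. Gabra5 overlaps a gene on the opposite strand, so its count may rest on the strand of the reads.

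The receptor genes with fewer than 20 UMIs in every gate were Gabra6 (0 UMIs), Grm3 (12 and 3 over all barcodes), Grin3b (9 and 3), Grin2c (14 and 4), Glra4 (18 and 11), Grid2ip (26 and 6) and Grik4 (28 and 10). Their levels could not be compared at this depth.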

How the data were processed

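Per the file headers, the deposited matrices are raw UMI counts per gene and barcode from Cell Ranger 4.0.0. Seurat 4.0.5, mm10 and GRCh38 stand in the submitters' processing notes without a role. The labels name both a v3.1 kit and a v2 library protocol. No feature is named for tdTomato, so the reporter was not checked. Strand handling in counting is not given in the sources used here.

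Barcodes with under 300 genes or over 20% mitochondrial UMIs were dropped (429 and 905). Scrublet (scanpy 1.11.5) called 2 and 0 doublets by its own threshold, so it had not worked, and the highest scores were removed instead, 0.8% per 1000 barcodes (1130 and 866 cells). Broad gates needed 8 of 13 rod, 5 of 11 cone, 5 of 13 bipolar, 4 of 13 amacrine, 6 of 12 Müller or 5 of 10 microglia markers. Cells passing more than 1 gate other than the rod gate were left out (270 and 80), and 1066 and 382 passed none. Rod bipolar cells had 3 of 5 markers; ON cone bipolar cells 3 of 6 ON markers and at most 1 rod bipolar marker; OFF cone bipolar cells at most 1 of each and an OFF marker; types and amacrine classes 2 markers, with no second type and at most 1 marker of the other amacrine class. Type 7, with 2 markers, needed 2 UMIs over them.

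UMIs were summed per gate and library and given as CPM with exact Poisson intervals; shares have exact Clopper-Pearson intervals. Log2 ratios had 1 count added to each sum. A count of 0 was given the limit of 3 counts. With 1 library per group nothing was tested, and cells of a library are not replicates. Called genes had at least 20 UMIs and a fold of 1.5 between libraries or 2 between gates. Genes were named in a gate where they had at least 20 UMIs over both libraries; where fewer are printed, the count is given and the gene was named for a comparison, after its values were seen. Of each partner list up to 3 genes with the highest CPM were named, and further partner genes named beside a count were chosen after their values were seen. The receptor genes, marker lists and partner list were chosen with earlier results of these data known. Scripts were checked on simulated counts. The work used pandas 2.3.3, scipy 1.17.1, matplotlib 3.10.9 and numpy 2.4.6 under Python 3.11.15, with TMM factors from edgeR 4.0.16 in R 4.3.3. Of the 49 receptor genes 5, and 1 partner gene, are not reported here and enter no count, median or sum of these lists. Gene positions for the other 44 receptor genes were matched by Ensembl ID to GENCODE M21. Alternatives changed the marker minimum, doublet removal, the mitochondrial limit, depth, the UMI minimum, scaling, cell weights, single cells and the subtraction of rod levels.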

Additional observations from a re-analysis of the deposited data

Results flagged for a closer look

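In 20 cases a measured receptor gene had opposite directions of a class comparison in the 2 libraries. The difference between libraries was not tested, and in 0 of the 20 did both counting intervals exclude 0. Log2 ratios are given for Muller and then MullerControl. For rod bipolar over ON cone bipolar cells they were 0.11 and -0.35 for Grm5 and -0.45 and 0.41 for Gria1. For ON over OFF cone bipolar cells they were 0.56 and -0.37 for Glrb, -0.04 and 1.31 for Gabbr2, 0.61 and -0.85 for Gabrb1, 0.09 and -0.19 for Grid1 and -0.03 and 0.34 for Gabbr1. For GABAergic over glycinergic amacrine cells they were -0.37 and 0.03 for Grin1, 0.46 and -0.89 for Grik5 and 0.59 and -0.30 for Gabbr1. For amacrine over bipolar cells they were 0.52 and -1.15 for Gabrd and 0.47 and -0.30 for Gabrb2.

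For cones over rods they were -1.75 and 2.92 for Grin1, -1.23 and 0.30 for Gabrr2, -0.65 and 2.80 for Gabbr2, -0.53 and 1.91 for Gabra2, -0.93 and 0.22 for Gria4 and 0.01 and -0.35 for Gabbr1. The rod level of Grin1 was 7.63 and 0.845 CPM, of Gabbr2 8.93 and 0.739 CPM and of Gabra2 6.51 and 1.37 CPM. For Müller cells over neurons they were -0.14 and 0.73 for Grik5 and -0.66 and 0.58 for Grid1, where rods were 4593 of 8458 and 6447 of 8373 neurons.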

How the results depend on the processing

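No paired analysis was possible because each group had 1 library, both labelled replicate 1. Of the counts of receptor genes past a fold, those of rod bipolar over ON cone bipolar, amacrine over bipolar and Müller over neurons stayed within 1.5 times of 12, 24 and 27 under every alternative run. With no minimum of UMIs, which admits genes with few counts, the library counts were 39 (rod), 36 (cone), 22 (rod bipolar), 20 (ON cone bipolar), 31 (OFF cone bipolar), 26 (GABAergic), 20 (glycinergic) and 20 (Müller), and the counts between classes 21 (ON over OFF), 14 (GABAergic over glycinergic) and 16 (cone over rod). With 1 more marker asked, which left 29 and 33 OFF cone bipolar cells, that library count was 1, Grm7, Gria4 and Gabrb2 turned to 0.16, 0.33 and 0.16, and the GABAergic over glycinergic count was 3. With the rod level subtracted the library counts were 7 (cone), 8 (rod bipolar), 15 (ON cone bipolar) and 1 (Müller), Gabbr1 in rod bipolar cells turned to -1.38, and Gria2, Gabrr1 and Gabrr2 in Müller cells went to -0.19, the value of 0 UMIs in both libraries, which the subtraction fixes because all 3 lay below rods. With each cell counted equally the cone library count was 7. Without the cell with the most UMIs of each gene the OFF library count was 5 and the cone over rod count 7, and with TMM factors the ON library count was 4 and the cone over rod count 7. Causes other than those stated were not tested. Depth limits small gates: in the GABAergic gate of MullerControl, with 17 cells, Grin2a had 0 UMIs without 1 cell, and Gria3 had 68.5 in place of 178 CPM.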
